A study of Mus musculus with 16 samples.

Results

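The 36 genes described here encode glucose transporters, the enzymes of glycolysis and of the pentose phosphate pathway, lactate dehydrogenases, lactate carriers, and the pyruvate dehydrogenase complex with its kinases. They were chosen by gene symbol, or for Pkm by its Entrez identifier (18746), from the 26219 genes listed in each of 2 deposited tables, by a rule of names that holds no measured value. By step of the pathway, 2 are glucose transporters, 6 act from hexokinase to phosphofructokinase, 2 set the level of fructose 2,6-bisphosphate, 10 belong to lower glycolysis, 4 handle lactate, 5 belong to pyruvate dehydrogenase and its kinases, and 7 to the pentose phosphate pathway.

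Glycolysis splits glucose into pyruvate, which is either reduced to lactate by lactate dehydrogenase or carried into mitochondria and oxidised by pyruvate dehydrogenase. The pentose phosphate pathway branches off at glucose 6-phosphate and supplies NADPH and the ribose of nucleotides. Primordial germ cells (PGCs), from which eggs and sperm derive, divide in the early gonad of both sexes, after which female germ cells enter meiosis and male germ cells stop dividing.

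The data were 16 libraries of mouse PGCs made by 3′ RNA sequencing, which counts reads near the 3′ end of each transcript. Of the 8 floxed libraries, all from C57BL/6 embryos at embryonic day E11.5, 4 were labelled Prdm1 CKO. They carried Prdm1(flox/flox) with the Rosa26(neo-EYFP/+) reporter and the transgene Dppa3-MCMP(Tg/0). The other 4 were controls with the first 2 alleles and without Dppa3-MCMP, which puts a tamoxifen-inducible Cre under control of Dppa3, a gene of PGCs. Dams of both groups received, at E10.5, 3 mg of 4-OHT (the active form of tamoxifen) per 25 g of body weight. The 8 wild-type libraries came from ICR:C57BL/6 = 1:1 embryos carrying Dppa3(EGFP/+), with 2 each at E10.5, E11.5, E13.5 female and E13.5 male. The labels give no sex for the E10.5, E11.5 and floxed libraries. For floxed gonads they name both an EYFP sort and an SSEA-1 antibody sort, not which group had which, so a difference in sorting and the genotype cannot be told apart. Nor do they tie replicates to different embryos or litters. The p-values therefore cover only the spread among these samples, and that spread may be technical.

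Floxed libraries held between 2798000 and 5032000 reads and wild-type libraries between 1485000 and 4783000. In RPM, the read count scaled to a common library total, 3 reads were worth 0.596 to 1.07 in floxed and 0.627 to 2.02 in wild-type libraries. All 12 PGC markers were detected in each of the 6 groups, at a summed 4183 to 9947 RPM. Prdm1 was listed at 76.6 to 89.4 RPM in CKO-labelled and 50.7 to 73.0 RPM in control libraries. Reads at the 3′ end need not cover what Cre removed, so this level is no check of the deletion or of the labels. Genes were tested with limma on log2(RPM + 1) and called at an adjusted p under 0.05 over all genes. RPM is not divided by length, so each level is compared between libraries and not between genes. These were bulk samples, in which fewer cells expressing a gene and less RNA per cell cannot be told apart.

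The 3 lactate genes called different between the sexes at E13.5 are shown by their RefSeq promoter windows (GRCm38.p6, 250 bases before to 50 after the annotated start, in the direction of transcription). They were picked after their values were seen. The windows are Ldha at chr7:46845554-46845853 (plus strand), Slc16a1 at chr3:104638414-104638713 (plus strand) and Ldhb at chr6:142507908-142508207 (minus strand). Capitals mark ACGTG read on either strand, 1 of the 2 forms of the core letters bound by hypoxia-inducible factors (the other, GCGTG, is left in lower case), and where the match extends to CACGTG, the E-box bound by MYC, all 6 letters are in capitals. Since CACGTG is its own reverse complement, each CACGTG holds 2 matches to ACGTG.
Ldha: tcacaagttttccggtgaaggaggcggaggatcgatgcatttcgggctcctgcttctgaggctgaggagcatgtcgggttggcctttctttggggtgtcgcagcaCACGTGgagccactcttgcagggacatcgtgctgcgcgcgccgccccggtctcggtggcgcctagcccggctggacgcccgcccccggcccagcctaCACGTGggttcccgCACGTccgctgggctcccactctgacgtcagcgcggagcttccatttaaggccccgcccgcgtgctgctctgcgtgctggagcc
Slc16a1: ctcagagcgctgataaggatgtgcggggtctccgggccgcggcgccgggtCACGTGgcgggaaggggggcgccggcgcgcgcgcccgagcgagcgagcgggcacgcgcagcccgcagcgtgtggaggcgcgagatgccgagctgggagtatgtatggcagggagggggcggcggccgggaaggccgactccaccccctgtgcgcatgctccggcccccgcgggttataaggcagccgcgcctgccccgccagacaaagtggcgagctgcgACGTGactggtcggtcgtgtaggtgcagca
Ldhb: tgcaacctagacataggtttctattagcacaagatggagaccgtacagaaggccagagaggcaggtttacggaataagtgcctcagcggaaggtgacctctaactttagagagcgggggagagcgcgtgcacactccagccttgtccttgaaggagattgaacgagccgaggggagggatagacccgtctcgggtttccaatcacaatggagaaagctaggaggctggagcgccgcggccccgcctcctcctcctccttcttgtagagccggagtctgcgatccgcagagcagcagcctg

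The Ldha window held 5 matches to ACGTG, a number reached by 60 of the 32851 promoter windows of the mouse genome (0.183%). The Slc16a1 window held 3 and the Ldhb window 0. Ldha has a second annotated start (chr7:46846832-46847131), whose window held 0. GCGTG was found 2 times in each Ldha window, 2 times in that of Slc16a1 and 1 time in that of Ldhb. Windows were found for 35 of the 36 genes, some with several starts. ACGTG occurred in 22 of their 51 windows (43.1%), against 19.6% of all windows, GCGTG in 31 of 51 (60.8%), against 32.4%, and CACGTG in 5 of 51 (9.80%), against 7.15%. These counts describe letters only and show no binding.

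Between E10.5 and E11.5, 1 of the 35 genes that passed the filter on low values in the wild-type libraries was called higher (Gpi1) and 4 were called lower (Slc2a3, Tpi1, Ldha and Slc16a1). Over all 10749 genes tested, 4.28% were called, 2.31% as higher and 1.97% as lower. The median log2 fold change was −0.04 over the 35 genes and 0.02 over all genes. Without E10.5 replicate 1, or without E10.5 replicate 2, 2 of the 35 were called, and 100 and 163 of all genes, against 460 with every library. Median-ratio scaling gave 0 higher and 5 lower among the 35, and 212 higher and 280 lower among all genes, against 248 higher and 212 lower as tested.

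By E13.5 more of the pathway genes had fallen than risen in both sexes. In female PGCs, 5 of the 35 were called higher and 18 lower, where 31.2% and 20.0% of all genes were called higher and lower (51.2% in all). The median log2 fold change of the 35 was −0.53, against 0.13 for all genes. In male PGCs, 6 were called higher and 17 lower, against 22.3% and 15.9% of all genes (38.2% in all), with medians of −0.41 and 0.11. Both comparisons use the same E11.5 libraries. Quantile scaling moved the female median of all genes to −0.02 and that of the 35 to −0.69, and gave 2731 higher and 2811 lower calls over all genes, against 3354 and 2148. Subtracting 0.13 from a female fold change below gives the change relative to the median gene.

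Set directly against male PGCs, female PGCs at E13.5 had 7 of the 35 genes higher and 10 lower. Over all genes 37.6% were called, 21.2% as higher and 16.4% as lower, with medians of −0.10 for the 35 and 0.05 for all genes. Without E13.5 female replicate 1 or 2, 2558 and 2552 of all genes were called, against 4038 with every library, and 13 and 16 of the 35. The genes higher in females were Pfkm, Pfkfb2, Pgk1, Ldha, Slc16a1, Pdk3 and Tkt. Those lower in females were Slc2a1, Pfkfb3, Aldoa, Tpi1, Gapdh, Pgam1, Eno1, Pkm, Ldhb and Pdk1. The summed level of all 36 genes was 9417 and 9496 RPM at E10.5, 9001 and 9021 at E11.5, 5302 and 5258 RPM in E13.5 females and 6698 and 6410 RPM in E13.5 males. For lower glycolysis the sum was 6429 and 6444 RPM at E10.5, 6176 and 6335 at E11.5, 2817 and 2699 RPM in females and 4308 and 4036 RPM in males. The sum for pyruvate dehydrogenase and its kinases was 828 to 899 RPM before E13.5. At E13.5 it was 973 and 969 RPM in females and 1009 and 990.3 RPM in males. It adds subunits of the complex to the kinases that switch it off, so it is no measure of the complex alone.

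**Figure D1:**
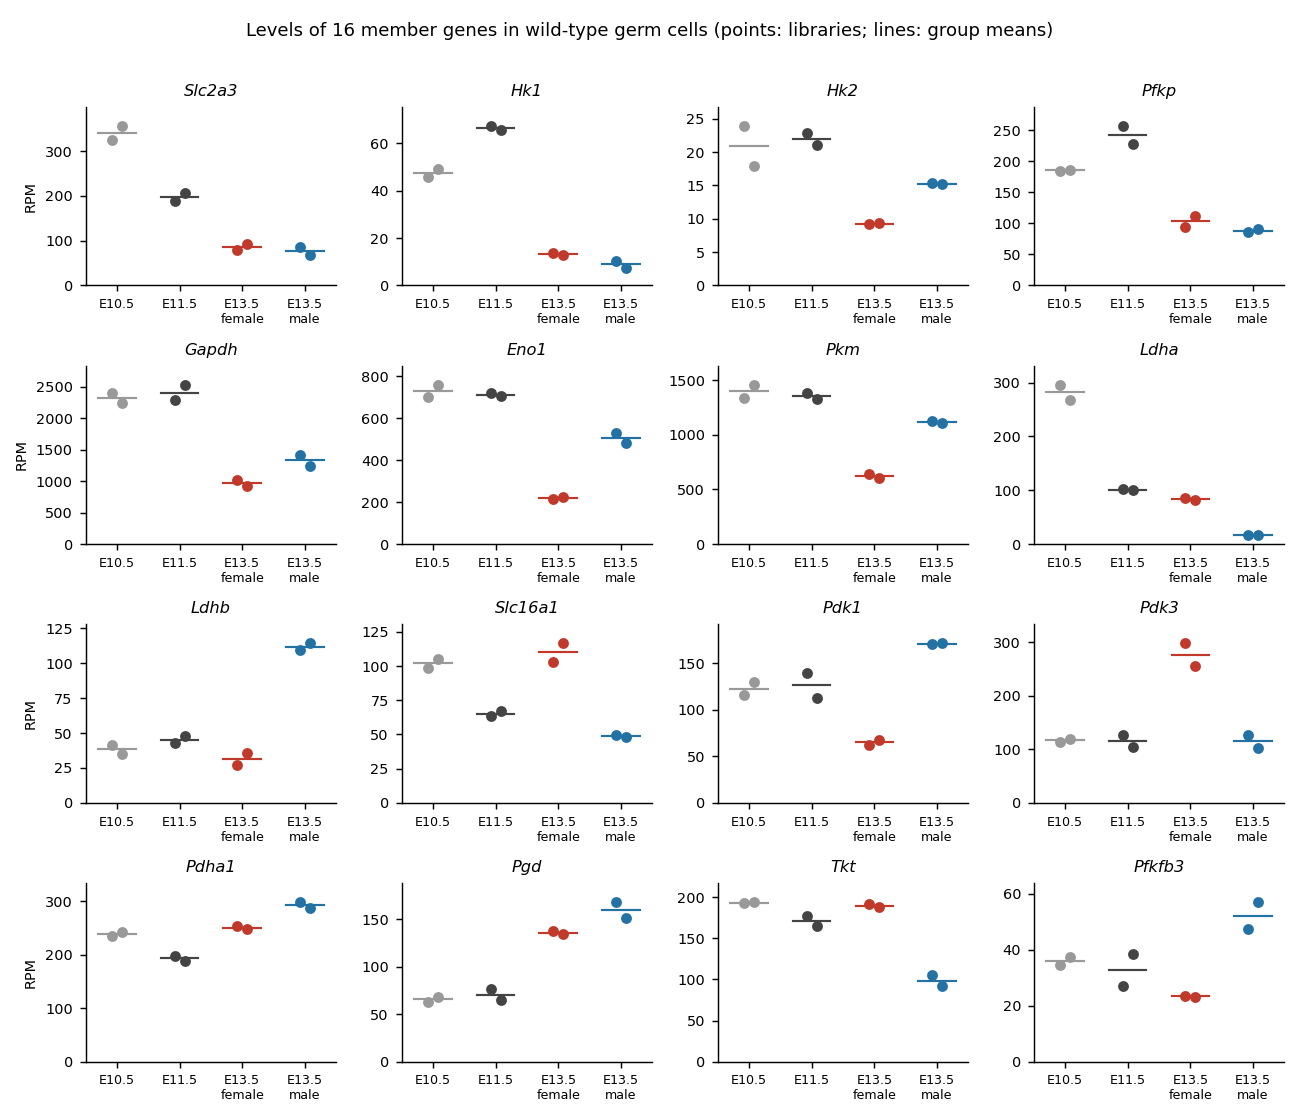
Levels in RPM (vertical axes, starting at 0) of 16 of the 36 genes in wild-type PGCs at E10.5, E11.5, E13.5 female and E13.5 male. Each point is a library and each line a group mean of 2 libraries. Hk1, Slc2a3 and Pfkp were low in both sexes at E13.5, while Ldha, Ldhb, Pdk1 and Pdk3 separated the sexes.

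Of the glucose transporter genes, Slc2a3 fell between E10.5 and E11.5 and again by E13.5 in both sexes. Slc2a3, which encodes the high-affinity glucose transporter GLUT3, stood at 325 and 356 RPM at E10.5, 189 and 207 at E11.5, 78.4 and 92.1 RPM in E13.5 females and 85.2 and 68.7 RPM in E13.5 males. Its log2 fold change was −0.78 ± 0.13 (SE) at E11.5 against E10.5 (limma, adjusted p = 0.000336), −1.21 ± 0.13 in females against E11.5 and −1.36 ± 0.13 in males against E11.5. The first of these calls was lost without the filter on low values or without the variance trend of limma (adjusted p at most 0.111). The sexes overlapped. Slc2a1, which encodes the widespread transporter GLUT1, was listed at 2.51 and 3.02 RPM in females and 8.35 and 6.69 RPM in males, against 12.1 and 7.40 RPM at E11.5. It fell in females by 1.48 on the log2 scale and was called lower in females than in males (−1.18 ± 0.39, adjusted p = 0.0169). With any of 3 of the 4 E13.5 libraries left out that last call was lost.

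From hexokinase to phosphofructokinase, 5 of 6 genes fell in females, against 20.0% of all genes, and 3 of 6 in males, against 15.9%. None of the 6 rose in either sex, where 31.2% of all genes rose in females and 22.3% in males. The steepest fall was that of Hk1, which encodes the hexokinase that traps glucose in most tissues. Hk1 had 45.6 and 49.3 RPM at E10.5, 67.3 and 65.5 at E11.5, 13.6 and 12.9 RPM in females and 10.4 and 7.40 RPM in males. All E13.5 libraries lay far below all earlier ones, with log2 fold changes against E11.5 of −2.24 ± 0.23 in females and −2.79 ± 0.23 in males (adjusted p = 9.17e-09 and 1.91e-10). The sexes were called different without E13.5 male replicate 1 and not with every library. Hk2, the insulin-regulated hexokinase of muscle and many tumours, had 23.9 and 17.9 RPM at E10.5, 22.9 and 21.1 at E11.5, 9.199 and 9.32 RPM in females and 15.4 and 15.1 RPM in males. Its change passed the test in females (−1.16 ± 0.28, adjusted p = 0.00108) and not in males (−0.50 ± 0.28, adjusted p = 0.164). The direct difference, −0.66 ± 0.28 in females against males, did not pass either (adjusted p = 0.0628).

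Phosphofructokinase, which commits sugar to glycolysis, is built from products of 3 genes. Pfkp, the platelet form, had 184 and 186 RPM at E10.5, 257 and 227 at E11.5, 93.9 and 112 RPM in females and 85.8 and 90.2 RPM in males. It fell in both sexes, by 1.23 in females and by 1.45 in males on the log2 scale, and the test did not separate the sexes (adjusted p = 0.166). Pfkl, the liver form, also fell in both, to 11.7 and 4.93 RPM in females and 6.01 and 11.6 RPM in males, against 25.6 and 31.9 RPM at E11.5. Pfkm, the muscle form, was not called in either sex against E11.5, yet at 31.2 and 23.8 RPM in females against 13.4 and 12.0 RPM in males it differed between them (1.05 ± 0.27, adjusted p = 0.00253). That call was lost without E13.5 female replicate 1 (adjusted p = 0.0714). Gpi1, glucose-6-phosphate isomerase, was the gene called higher at the later of the 2 stages before E13.5 (335 and 301 RPM at E11.5 against 246 and 253 RPM at E10.5, 0.34 ± 0.10, adjusted p = 0.0484). This call was lost in 11 of 19 alternative settings, among them those without either E10.5 library, E11.5 replicate 1 or either E13.5 female library. Gpi1 fell in females to 251 and 255 RPM, a call lost without E11.5 replicate 1 or E13.5 female replicate 1 (adjusted p at most 0.0928). Its male value was not called with every library and passed without E11.5 replicate 2.

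Bifunctional enzymes make and break fructose 2,6-bisphosphate, the activator of phosphofructokinase. Of their genes, Pfkfb2 and Pfkfb3 differed between the sexes in opposite directions. Pfkfb1 and Pfkfb4 belong to the list of further genes below. Pfkfb1 had 20.5 and 26.04 RPM in E13.5 females and 12.7 and 14.1 RPM in E13.5 males. Pfkfb2, known best from heart, had 11.3 and 14.7 RPM at E10.5, 12.1 and 9.11 at E11.5, 16.3 and 21.1 RPM in females and 4.34 and 4.58 RPM in males. Females exceeded males without overlap (1.84 ± 0.33, adjusted p = 7.34e-05), and in males Pfkfb2 fell against E11.5 (−1.08 ± 0.33, adjusted p = 0.0116). Pfkfb3, the form in which kinase activity most exceeds phosphatase activity, had 34.8 and 37.5 RPM at E10.5, 26.9 and 38.4 at E11.5, 23.4 and 23.3 RPM in females and 47.4 and 57.0 RPM in males. It was lower in females than in males (−1.12 ± 0.21, adjusted p = 0.00011) and rose in males against E11.5 (0.68 ± 0.21, adjusted p = 0.012). The male changes of both genes against E11.5 were lost without E11.5 replicate 1 (adjusted p = 0.0746 for Pfkfb2 and at most 0.152 for Pfkfb3), and that of Pfkfb3 also without E13.5 male replicate 2, while their sex differences passed in all 19 settings. Without E11.5 replicate 1, both genes were also called in females against E11.5, Pfkfb2 as higher and Pfkfb3 as lower (adjusted p at most 0.0448 and 0.0278).

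Lower glycolysis, from aldolase to pyruvate kinase, fell nearly throughout at E13.5. Of the 9 genes that passed the filter, 7 fell in each sex (Aldoa, Tpi1, Gapdh, Pgk1, Pgam1, Eno1 and Pkm). Aldoc rose in each, and Eno3, the muscle enolase, was not called. Among all genes, 20.0% fell and 31.2% rose in females, and 15.9% fell and 22.3% rose in males. Without E13.5 male replicate 2, Eno3 was called lower in males than at E11.5 and higher in females than in males, and the male call was also made without E11.5 replicate 2. Eno2, the neuronal enolase, was at most 0.569 RPM in wild-type libraries and was not tested. Eno1, the ubiquitous enolase, had 702 and 759 RPM at E10.5, 719 and 705 at E11.5, 214 and 224 RPM in females and 530.4 and 481 RPM in males. The fall was 1.70 on the log2 scale in females and 0.50 in males, and the sexes differed (−1.20 ± 0.09, adjusted p = 2.13e-11). Pkm, pyruvate kinase of muscle and dividing cells, showed the same order, with 1339 and 1458 RPM at E10.5, 1384 and 1324 at E11.5, 642 and 601 RPM in females and 1122 and 1108 RPM in males (female minus male −0.84 ± 0.08, adjusted p = 2.85e-09).

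Pgam1, phosphoglycerate mutase, had 285 and 292 RPM in females and 513 and 499.7 RPM in males, against 642 and 589.9 RPM at E11.5. Its male fall was lost without E11.5 replicate 1 or E13.5 male replicate 2 (adjusted p at most 0.146). Gapdh, the oxidising enzyme of the pathway that is often used as a reference gene, had 2396 and 2245 RPM at E10.5, 2284 and 2533 at E11.5, 1016 and 922 RPM in females and 1419 and 1246 RPM in males. It fell by 1.31 in females and by 0.86 in males on the log2 scale. Gapdh was lower in females than in males (−0.46), a call lost without the variance trend of limma (adjusted p = 0.0591). Aldoa and Tpi1, aldolase A and triosephosphate isomerase, were also lower in females than in males, by smaller margins (−0.32 ± 0.09 and −0.64 ± 0.16). The Aldoa difference was lost without E13.5 female replicate 1 or E13.5 male replicate 1 (adjusted p at most 0.123). Tpi1 had already fallen between the earlier stages, to 76.8 and 74.6 RPM at E11.5 against 119 and 115 RPM at E10.5, a call lost without either E10.5 library or without E11.5 replicate 2. Its further fall in males was lost without E13.5 male replicate 2 (adjusted p = 0.0504).

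Pgk1 encodes the X-linked phosphoglycerate kinase. It had 479 and 509.98 RPM at E10.5, 438 and 418 at E11.5, 249 and 231 RPM in females and 191 and 190.2 RPM in males. It was the member of lower glycolysis called higher in females (0.33 ± 0.10, adjusted p = 0.00806), a call lost without E13.5 female replicate 1. Aldoc and Eno3 were also listed higher in both female libraries than in either male one, without a call (0.69 ± 0.41 and 0.74 ± 0.37, adjusted p = 0.193 and 0.119). Aldoc, the brain aldolase, was near the counting floor at E11.5 with 1.35 and 1.99 RPM and reached 9.41 and 11.2 RPM in females and 5.34 and 6.69 RPM in males. Its log2 fold changes of 2.09 ± 0.41 and 1.398 ± 0.41 rest on few reads, and the male call was lost without E13.5 male replicate 2 (adjusted p at most 0.0736).

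**Figure D2:**
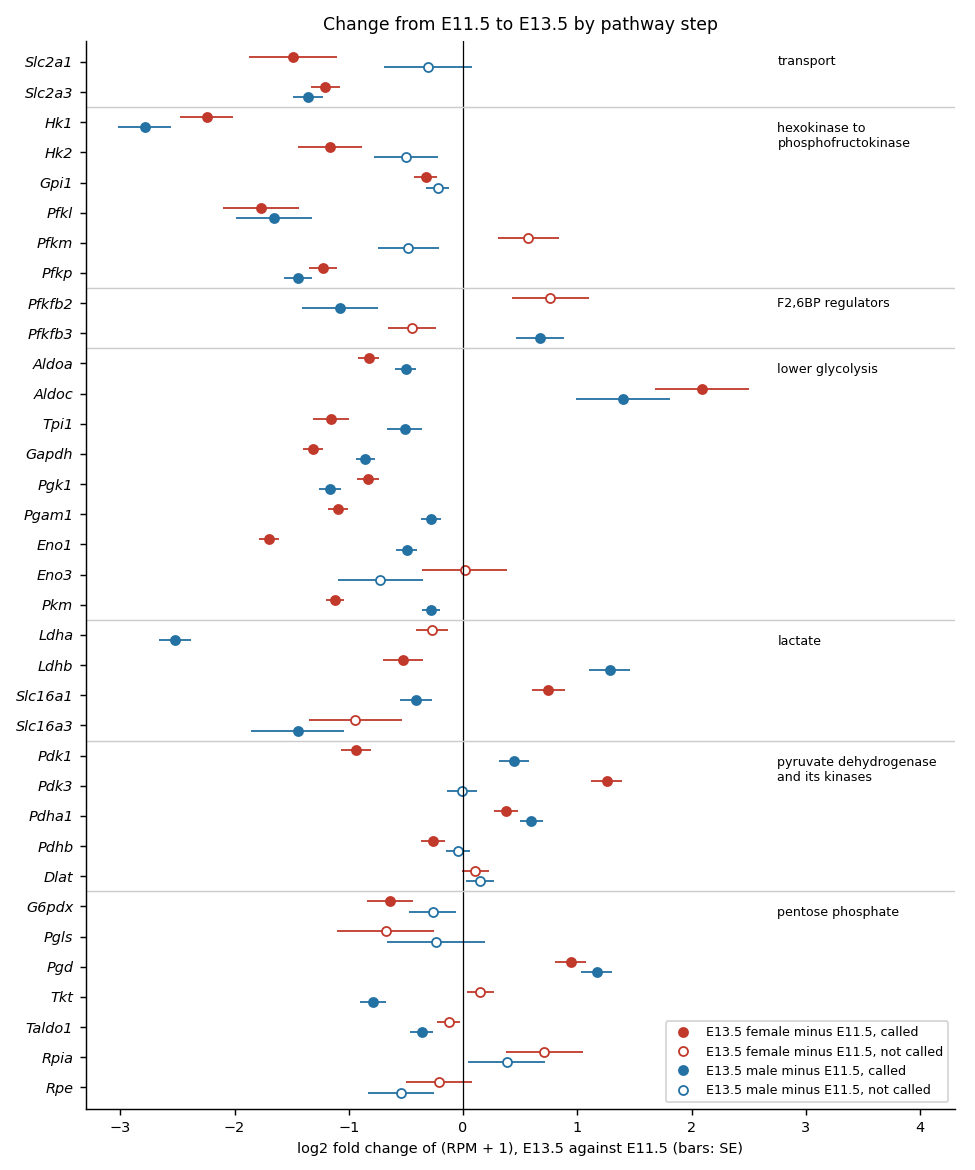
Log2 fold change of (RPM + 1) at E13.5 against E11.5 (horizontal axis) for the 35 tested genes in pathway order, females in red above males in blue, with bars for the SE. Filled points were called. Lower glycolysis lies left of 0 in both sexes except Aldoc and Eno3, and further left in females for Eno1, Pkm and Pgam1, while Ldha, Ldhb, Pdk1 and Pdk3 lie apart between the sexes.

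Of the 35 tested genes, Ldha had the highest and Ldhb the lowest log2 difference between females and males. Ldha (chr7:46842274-46855627, mm10), the lactate dehydrogenase subunit typical of lactate-producing muscle, had 296 and 268 RPM at E10.5, 103 and 99.6 at E11.5, 86.6 and 81.1 RPM in females and 16.4 and 17.3 RPM in males. The stages and sexes formed 4 levels with no overlap. The log2 fold change was −1.47 ± 0.14 at E11.5 against E10.5 (adjusted p = 4.96e-08), −0.27 ± 0.14 in females against E11.5 (adjusted p = 0.111), −2.52 ± 0.14 in males against E11.5 (adjusted p = 2.83e-14) and 2.25 ± 0.14 in females against males (adjusted p = 3.95e-13). Median-ratio and quantile scaling called the female fall as well (adjusted p at most 0.0288). Ldhb (chr6:142490249-142507957, mm10), the subunit typical of lactate-oxidising heart, had 41.5 and 35.2 RPM at E10.5, 43.1 and 47.5 at E11.5, 27.4 and 35.4 RPM in females and 109 and 114 RPM in males. It rose in males against E11.5 (1.28 ± 0.18, adjusted p = 1.58e-06), fell in females (−0.53 ± 0.18, adjusted p = 0.015) and was lower in females than in males (−1.81 ± 0.18, adjusted p = 4.38e-09). The female fall was lost without E11.5 replicate 2 or E13.5 female replicate 1 (adjusted p at most 0.212).

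Slc16a1 had the order of Ldha between the sexes. Slc16a1 (chr3:104638664-104658462, mm10), which encodes the proton-coupled carrier MCT1, had 98.9 and 105 RPM at E10.5, 63.3 and 66.9 at E11.5, 103 and 116 RPM in females and 49.4 and 47.9 RPM in males. It fell at E11.5 against E10.5 (−0.64 ± 0.14, adjusted p = 0.00843), rose in females (0.74 ± 0.14, adjusted p = 0.000102), fell in males (−0.41 ± 0.14, adjusted p = 0.0243) and was higher in females than in males (1.16 ± 0.14, adjusted p = 2.99e-07). The call at E11.5 was lost without either E10.5 library, and the male call without E11.5 replicate 2 or either E13.5 male library (adjusted p at most 0.108 and 0.0959). Slc16a3, which encodes MCT4, the carrier of lactate-exporting cells, was low, with 2.72 and 5.48 RPM in females and 3.34 and 1.76 RPM in males, against 8.08 and 8.83 RPM at E11.5. It fell in males (−1.45 ± 0.41, adjusted p = 0.00582), a call lost without E13.5 male replicate 2, and the sexes overlapped. Its female change was called without E13.5 female replicate 2 or either male library, and not with every library.

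Pyruvate dehydrogenase, the mitochondrial gate to the citric acid cycle, did not follow lower glycolysis. Pdha1, the X-linked gene of its catalytic subunit, had 235 and 243 RPM at E10.5, 197 and 188 at E11.5, 254 and 248 RPM in females and 298 and 286 RPM in males. It rose in both sexes (0.38 ± 0.10 in females and 0.60 ± 0.10 in males, adjusted p = 0.003 and 3.19e-05). Pdhb, the partner subunit, fell in females to 218 and 239 RPM, against 261 and 289.5 RPM at E11.5 (−0.27 ± 0.10, adjusted p = 0.0344), a call lost in 5 of 19 settings, among them those without E11.5 replicate 2 or either female library. Dlat, the acetyltransferase core, was called in no wild-type comparison and stayed between 129 and 160.4 RPM in all 8 libraries.

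Of the pyruvate dehydrogenase kinases, which switch the complex off by phosphorylation, Pdk1 and Pdk3 were reciprocal between the sexes. Pdk1 (chr2:71873215-71903858, mm10) had 116 and 129.98 RPM at E10.5, 140.1 and 113 at E11.5, 62.7 and 67.7 RPM in females and 171 and 171 RPM in males. It fell in females (−0.94 ± 0.13, adjusted p = 1.5e-06), rose in males (0.45 ± 0.13, adjusted p = 0.00896) and was lower in females than in males (−1.38 ± 0.13, adjusted p = 2.8e-09). The male rise was lost without E11.5 replicate 2 (adjusted p at most 0.136). Pdk3 (chrX:93764616-93832150, mm10) had 114 and 119.7 RPM at E10.5, 127 and 104 at E11.5, 298 and 255 RPM in females and 127 and 102 RPM in males. It rose in females (1.26 ± 0.13, adjusted p = 1.04e-08), showed no called change in males (−0.01 ± 0.13, adjusted p = 0.968) and was higher in females than in males (1.26 ± 0.13, adjusted p = 1.35e-08).

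Pdk3, Pgk1, Pdha1 and G6pdx are on the X chromosome. Of 408 X-linked genes tested, 54.9% were called higher and 4.66% lower in females than in males at E13.5, with a median log2 fold change of 0.69, against 20.1% and 16.9% of 9991 autosomal genes with a median of 0.03. Pdk3 lay above the X-linked median and Pgk1 (0.33) below it. Pdha1 and G6pdx were not called and had negative values, −0.22 ± 0.10 and −0.37 ± 0.20 (adjusted p = 0.0884 and 0.15).

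In the pentose phosphate pathway, 1 of 7 genes rose and 1 fell in females, and 1 rose and 2 fell in males. Over all genes 31.2% rose and 20.0% fell in females, and 22.3% rose and 15.9% fell in males. Pgd, the NADPH-producing 6-phosphogluconate dehydrogenase, had 62.7 and 68.5 RPM at E10.5, 76.1 and 64.6 at E11.5, 138 and 134 RPM in females and 168 and 151 RPM in males. It rose in both sexes (0.94 ± 0.13 in females and 1.17 ± 0.13 in males, adjusted p = 1.78e-06 and 8.07e-08), and the sexes were not called different (adjusted p = 0.192). Tkt, transketolase, which exchanges carbon between the pathway and glycolysis, had 192 and 194 RPM at E10.5, 176 and 165 at E11.5, 191 and 187 RPM in females and 105 and 91.9 RPM in males. It fell in males (−0.79 ± 0.12, adjusted p = 4.07e-06) and was higher in females than in males (0.94 ± 0.12, adjusted p = 2.72e-07).

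G6pdx, the X-linked entry enzyme of the pathway, had 24.9 and 32.6 RPM in females and 39.7 and 34.9 RPM in males, against 44.4 and 45.6 RPM at E11.5. It fell in females (−0.64 ± 0.20, adjusted p = 0.00959), a call lost without E13.5 female replicate 1 (adjusted p = 0.155). Taldo1, transaldolase, fell in males to 295 and 354 RPM, against 433 and 398 RPM at E11.5 (−0.36 ± 0.10, adjusted p = 0.005), a call lost without E13.5 male replicate 1 (adjusted p at most 0.132). Pgls, Rpia and Rpe, which encode the lactonase and the enzymes that interconvert pentose phosphates, were called in no wild-type comparison, though Rpia was called higher in females than at E11.5 without E11.5 replicate 1. Taldo1 was not called between the sexes (0.24 ± 0.10, adjusted p = 0.0617) and passed in 6 of 19 settings, among them those without either E11.5 library or without E13.5 male replicate 2.

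Since several steps are encoded by alternative genes, the share of reads from each alternative was computed per library. A share compares libraries and gives no ratio of proteins, because reads per transcript may differ between genes. Ldhb took 12.3% and 11.6% of Ldha and Ldhb reads at E10.5, 29.5% and 32.3% at E11.5, 24.0% and 30.4% in E13.5 females and 86.97% and 86.9% in E13.5 males. Males stood apart from every other group, floxed libraries included, in which the share was 24.0% to 37.3% in CKO-labelled and 30.2% to 47.1% in control libraries. Pdk3 took 82.6% and 79.0% of Pdk1 and Pdk3 reads in females and 42.6% and 37.4% in males, while E10.5 and E11.5 libraries lay between 47.6% and 49.5%. Hk2 took 40.4% and 42.0% of Hk1 and Hk2 reads in females and 59.7% and 67.2% in males, against 34.4% and 26.7% at E10.5 and 25.4% and 24.3% at E11.5. Pfkp took 68.7% to 93.4% of phosphofructokinase reads in all 16 libraries, and the sexes overlapped. The wild-type shares are given as values with no test. An exact permutation test of 2 against 2 libraries cannot reach 0.05, and no model was fitted to the shares.

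**Figure D3:**
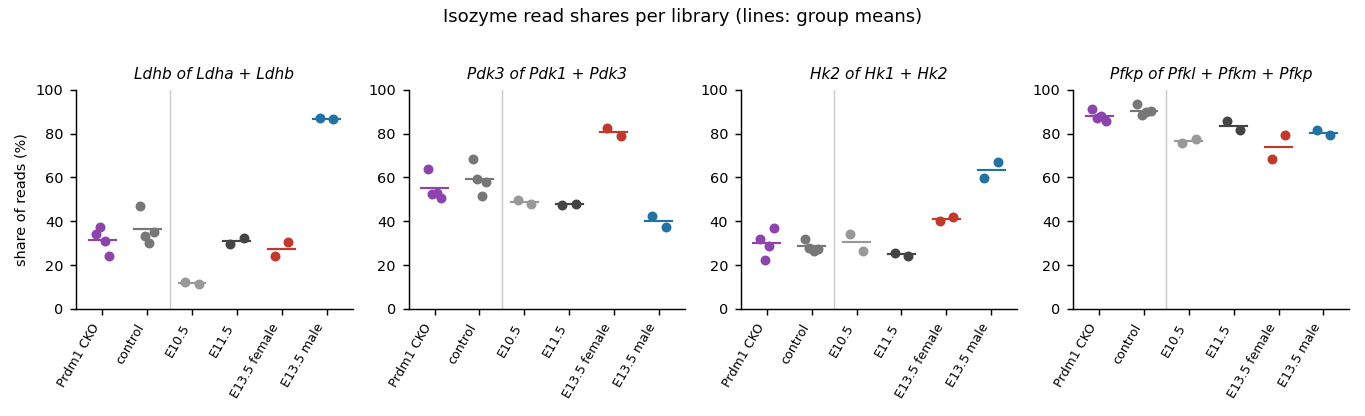
Share of reads (vertical axis, percent) from Ldhb, Pdk3, Hk2 and Pfkp among the alternative genes named above each panel, for CKO-labelled and control floxed libraries left of the grey line and the wild-type groups right of it. Points are libraries and lines group means. E13.5 males stand apart for Ldhb, at 86.97% and 86.9%, and E13.5 females for Pdk3, at 82.6% and 79.0%.

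Marker genes of other cells differed between the same wild-type groups. The summed level of 8 erythroid markers was 228 to 248 RPM at E10.5, 6.83 to 16.8 RPM at E11.5, 31.2 to 37.6 RPM in females and 5.01 to 7.04 RPM in males. That of 13 gonadal somatic and mesenchymal markers was 62.3 to 67.9 RPM at E10.5, 6.73 to 8.83 RPM at E11.5, 5.21 to 5.64 RPM in females and 15.7 to 16.6 RPM in males. Lum was at 0 in the last 3 groups. The 7 Sertoli markers summed to 21.9 to 26.1 RPM in females and 42.6 to 58.8 RPM in males, and Amh was at 0 in both. The 8 endothelial markers summed to 121 to 129.9 RPM in females and 65.5 to 67.8 RPM in males, the 8 mesonephric markers to 148 to 156 RPM in females and 293 to 302.5 RPM in males, with Tie1 and with Pax2 and Cdh16 at 0 in both. Most of the endothelial sum was Pecam1, at 115 and 120.9 RPM in females and 57.1 and 57.8 RPM in males. Most of the mesonephric sum was Epcam, at 110.6 and 109.6 RPM in females and 209.7 and 214.8 RPM in males. Most of the female Sertoli sum was Aard, at 25.5 and 21.1 RPM, against 22.7 and 19.4 RPM in males. Cst9 was at 0 in females and had 16.7 and 13.7 RPM in males. Ptgds had 0 and 0.274 RPM in females and 11.4 and 5.63 RPM in males. Of the 3 Sertoli markers that passed the filter, 2 were called lower in females than in males and 0 higher, against 16.4% and 21.2% of all genes. Sums resting on so few genes do not measure how many such cells were present. The 6 pre-granulosa markers summed to 15.1 to 22.8 RPM in females and 8.02 to 14.8 RPM in males, and the 9 macrophage markers reached at most 2.02 RPM in any wild-type library. The part of other cells in the changes above was not tested.

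In the floxed libraries, 1 day after induction, none of the 32 genes that passed the filter was called between CKO-labelled and control PGCs. Over all 9384 genes 2.43% were called, 1.93% as higher and 0.501% as lower. limma-voom on reads rounded from the RPM steps also called 0 of the 32. At an unadjusted p under 0.05, Hk1, Hk2, Gapdh, Ldha, Pdha1 and Tkt were higher and Rpe was lower in CKO-labelled PGCs. The share of all genes at that unadjusted threshold was not computed, so these genes are named without a background. The shares above are for adjusted p. The median log2 fold change of the 32 was 0.09, against −0.01 for all genes, and the summed level of the 36 genes was 7387 to 8363 RPM in CKO-labelled and 7122 to 8082 RPM in control libraries.

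Of the hexokinases, Hk1 had 56.7, 73.9, 60.8 and 52.2 RPM in CKO-labelled libraries 1 to 4, against 33.8, 36.8, 43.3 and 50.9 RPM in control libraries 1 to 4. Hk2 had 26.7, 21.3, 24.7 and 30.7 RPM in CKO-labelled libraries, against 15.9, 14.3, 15.8 and 19.3 RPM in controls. For these 2 of the 32 genes, and no other, every CKO-labelled library lay above every control, which was so for 4.34% of all genes, a background that the 2 of 32 lie near. The log2 fold changes of 0.56 ± 0.15 and 0.63 ± 0.17 did not pass the adjustment over all genes (adjusted p = 0.0885 and 0.0773).

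Pdha1 came nearest to a call. It had 215, 258, 275 and 273 RPM in CKO-labelled libraries 1 to 4, against 151, 176, 180.4 and 226 RPM in control libraries 1 to 4. CKO-labelled library 1 lay below control library 4 and the other 3 lay above all controls (0.48 ± 0.12, adjusted p = 0.0669). The gene passed under 5 of 20 alternative settings, among them median-ratio and quantile scaling and the fit without control replicate 4. Ldha averaged 121 ± 27.4 RPM in CKO-labelled and 91.2 ± 19.2 RPM in control libraries (SD, n = 4 each), a difference within the spread (0.40 ± 0.17, adjusted p = 0.342). Gapdh averaged 1857 ± 265 and 1516 ± 272 RPM (0.30 ± 0.13, adjusted p = 0.382), and Tkt 202.5 ± 27.8 and 156 ± 18.2 RPM (0.37 ± 0.12, adjusted p = 0.167). Rpe, ribulose-phosphate epimerase, averaged 21.8 ± 4.10 and 28.4 ± 2.52 RPM (−0.37 ± 0.16, adjusted p = 0.355).

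Like Pdha1, Ldha, Gapdh, Tkt and Rpe, the other 25 tested genes overlapped between the groups. Slc2a3, for example, was at 123 to 165 RPM in CKO-labelled and 91.1 to 148 RPM in control libraries. Slc2a1, Aldoc, Eno2 and Pgls were too low to test, with at most 6.60, 4.37, 1.07 and 5.17 RPM in any floxed library. Gonadal somatic and mesenchymal markers summed to 12.6 to 270 RPM in CKO-labelled and 13.54 to 77.2 RPM in control libraries, the highest being CKO-labelled library 4. With that sum as a covariate, and without control replicate 1 and CKO-labelled replicate 4, 0 of the 32 genes were called.

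**Figure D4:**
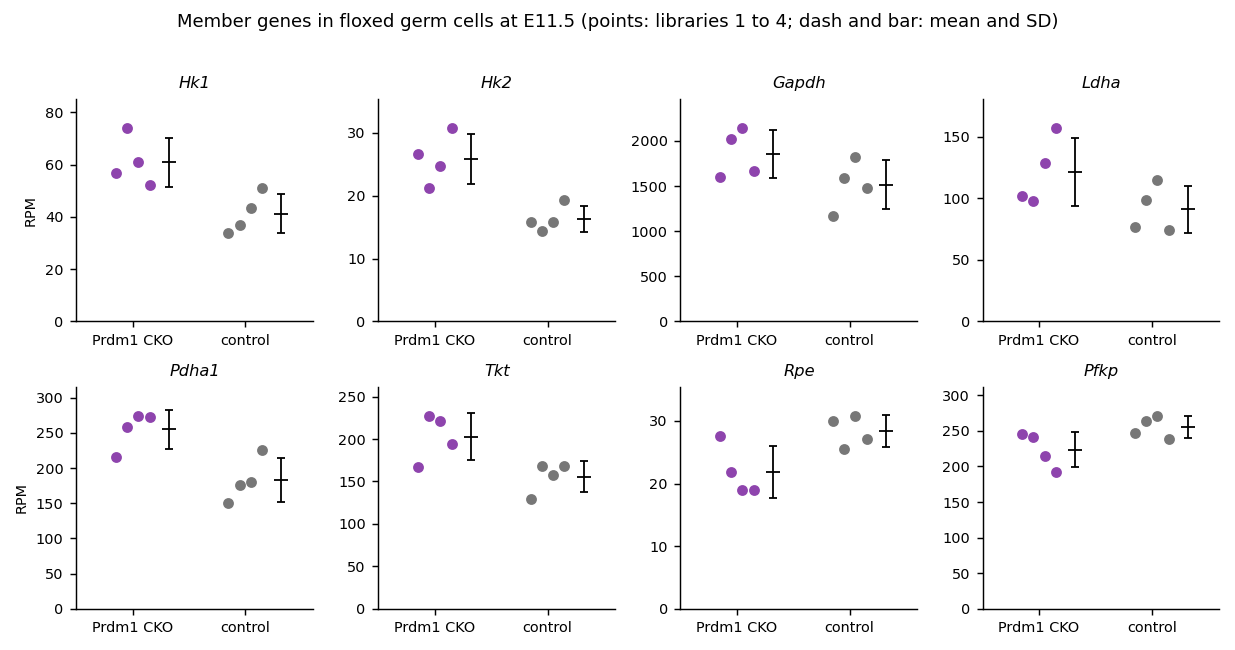
Levels in RPM (vertical axes, starting at 0) of 8 genes in floxed PGCs at E11.5, CKO-labelled libraries 1 to 4 left of control libraries 1 to 4. The dash and bar beside the points give the mean and SD of 4 libraries. The groups do not overlap for Hk1 and Hk2 and overlap for the other 6.

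Beyond the 36 genes, a list of 53 further glucose and pyruvate genes had 30 that passed the filter in wild-type libraries. Of these, 8 rose and 9 fell in females, 5 rose and 11 fell in males, and 10 were higher and 5 lower in females than in males. Over all genes, 31.2% rose and 20.0% fell in females, 22.3% rose and 15.9% fell in males, and 21.2% were higher and 16.4% lower in females than in males. Mpc1, a subunit of the mitochondrial pyruvate carrier, had 179 and 130.1 RPM at E11.5, 80.5 and 92.4 RPM in females and 44.8 and 33.8 RPM in males, and was higher in females than in males (1.13 ± 0.16). Its partner Mpc2 rose at E11.5 against E10.5, the list's only call there (0.61 ± 0.16, adjusted p = 0.0309). Unlike Mpc1, Mpc2 was higher at E13.5, with 56.6 and 43.8 RPM at E11.5, 97.2 and 118 RPM in females and 87.2 and 82.1 RPM in males. Pck2, the mitochondrial phosphoenolpyruvate carboxykinase, had 18.8 and 13.4 RPM in females and 2.34 and 3.17 RPM in males. Of the 26 tested in floxed libraries, 0 were called. At an unadjusted p under 0.05, 2 were higher and 2 lower, again without a computed share of all genes.

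A list of 28 genes of the hypoxia-inducible factor system and its targets outside glucose metabolism had 25 that passed in wild-type libraries. Of these, 10 rose and 5 fell in females, 5 rose and 3 fell in males, and 5 were higher and 5 lower in females than in males, against the same shares of all genes as for the previous list. Hif1a, the oxygen-regulated subunit that acts on many glycolytic genes, had 116 and 124 RPM at E10.5, 90.9 and 66.9 at E11.5, 130.04 and 149 RPM in females and 99.2 and 99.7 RPM in males. It was the list's only call at E11.5 against E10.5, as lower (−0.61 ± 0.14, adjusted p = 0.0109). Epas1, the related subunit HIF-2α, had 7.74 and 3.56 RPM in females and 46.8 and 44.0 RPM in males (−2.88 ± 0.33 in females against males). Egln3, the hydroxylase that is itself induced in hypoxia, fell in both sexes, by 2.31 in females and by 1.35 in males on the log2 scale. In the floxed libraries 1 of 21 tested was called, Fam162a, as higher, with 191 to 239 RPM in CKO-labelled and 121 to 162 RPM in control libraries.

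Reads of several of these genes may not be unique. The last 300 bases of 11 of the 36 matched a transcript of another gene at 95% identity or more over at least 100 bases. For Pfkp, Pdha1 and Rpe the only match was the gene that overlaps their end on the opposite strand, and not a copy elsewhere. Pseudogene copies were found for Gpi1, Aldoa, Tpi1, Gapdh, Eno1, Pkm, Ldha and Ldhb, with 125 for Gapdh and 6 for Ldha. For Eno1 the near copy Eno1b was found as well. The last 1000 bases of 10 genes overlapped another gene (Slc2a1, Pfkp, Pfkfb2, Aldoa, Tpi1, Gapdh, Pdha1, G6pdx, Pgls and Rpe). How shared reads and strand were handled is not given in the sources used here, so levels of these genes are uncertain to that extent. No such copy or overlap was found for Hk1, Hk2, Slc2a3, Slc16a1, Pdk1, Pdk3, Pgd or Tkt.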

How the data were processed

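The deposited values are RPM, which the authors made per the labels from 3′ RNA-seq reads of sorted PGCs. Per the labels' protocols, floxed cells were sorted by EYFP or with an anti-SSEA-1 antibody, and complementary DNA was amplified with 11 PCR cycles, from 1 ng RNA in the wild-type libraries. Per the submitters' processing notes, cutadapt 1.3, TopHat 1.4.1, Cufflinks 2.2.0 and the mm10 build were used. RPM values are relative to gene-assigned reads, and 92 ERCC rows of the wild-type table were left out. Steps between low values gave the depth. Since only 99.65% to 99.76% of those values came out as whole reads within 0.05, no count test was used. Floors of 3 reads cover counting error only.

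The 36 genes and all gene lists were chosen with earlier results of these data known. Genes with at least 5 RPM in at least 4 floxed or 2 wild-type libraries were fitted on log2(RPM + 1), a scale that understates changes of low genes, with limma 3.58.1 (lmFit, then eBayes with trend) in R 4.3.3. The 8 wild-type libraries shared 1 fit with 4 group means. Tests were two-sided with Benjamini-Hochberg adjustment over all genes tested. The method was also run on simulated data, in which far fewer genes changed than were called at E13.5 and every gene had the same relative spread. That run therefore does not test the scaling or the spread of these data. All 36 genes were described, and genes of the further lists were named by smallest p. Alternatives were pseudocounts of 0.1 and 10, no filter or a filter at 20 RPM, median-ratio and quantile scaling, no trend, array weights, a replicate block, the groups compared alone, a somatic covariate, each replicate left out, and, chosen after seeing the data, voom. Promoter windows came from RefSeq (GRCm38.p6) and gene positions from an mm10 annotation. Near copies were sought with BLAST 2.17.0.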

Additional observations from a re-analysis of the deposited data

Results flagged for a closer look

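Among 66 groups of 4 floxed libraries with a gene at 5 RPM or more, 3 held a library whose gap to the nearest other exceeded Dixon's 95% critical value, and chance gives about 1 in 20. These were Eno3 in control replicate 4 at 4.95 RPM, Slc16a1 in control replicate 1 at 64.2 RPM and Slc16a3 in control replicate 3 at 10.3 RPM. The Eno3 and Slc16a1 values lay below the other control libraries and the Slc16a3 value above them.

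The level at E13.5 differed between the sexes for 17 genes, by the test of female against male itself. Because the E11.5 libraries carry no sex label, a sex difference already present at E11.5 cannot be told apart from one that arose later. The log2 difference, female minus male, was positive for Ldha (2.25), Pfkfb2 (1.84), Pdk3 (1.26), Slc16a1 (1.16), Pfkm (1.05), Tkt (0.94) and Pgk1 (0.33). It was negative for Ldhb (−1.81), Pdk1 (−1.38), Eno1 (−1.20), Slc2a1 (−1.18), Pfkfb3 (−1.12), Pkm (−0.84), Pgam1 (−0.81), Tpi1 (−0.64), Gapdh (−0.46) and Aldoa (−0.32).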

How the results depend on the processing

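No value that was called, as tested or in the alternative setting, changed sign between the 2. Sign changes of values called in neither were not counted. Of 172 comparisons of single genes, 47 moved across the threshold in at least 1 setting, in 66 of 3268 values as a lost call and in 53 as a gained one. Between CKO-labelled and control libraries, 0 genes of the pathway were called as tested, 1 with median-ratio scaling, 1 with quantile scaling, 2 with array weights (Hk1 and Pdha1) and 4 with the replicate block, and 0 to 1 with a replicate left out. With the block Hk2, Gapdh, Pdha1 and Tkt passed (adjusted p = 0.04 for Hk2, the largest 0.0442 for Gapdh). Libraries with the same number had correlated deviations of 0.241, 0.020, 0.252 and 0.182, and 3 of 4 correlated best with their own number. Since 1 of the 4 correlations was under 0.1, the numbers were not taken as pairs, and the block result is a hint only. In wild-type libraries these correlations were −0.031 to 0.033, and the block called the same 5, 23, 23 and 17 genes.

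Between E10.5 and E11.5, 5 genes were called as tested, 1 (Ldha) without a filter, 1 (Ldha) without the variance trend, and 2 to 5 with a replicate left out. Counts ranged over all settings from 19 to 27 for females against E11.5, 18 to 24 for males against E11.5 and 13 to 20 for females against males. Over all genes, calls between CKO-labelled and control libraries numbered 228 as tested and 101 without CKO-labelled replicate 2, 111 without replicate 1 and 118 without replicate 3, 139 without replicate 4 or with a 20 RPM filter, and 152 without a filter. Between E10.5 and E11.5 they numbered 27 without the trend and 80 without a filter. Leaving out 1 wild-type library leaves 1 in its group, which is then assumed to vary like the others. edgeR was not run, since the values were not whole reads for every gene. At 2 libraries a group and these depths, members under about 10 RPM (Slc2a1, Pgls, Aldoc and Slc16a3) had SEs of 0.39 to 0.43 on the log2 scale. Changes of that size were not detectable, and clearly larger ones could also go uncalled. At E11.5 against E10.5, Aldoc, Slc16a3 and Pgls stood at −1.26, −1.10 and 1.20 relative to the median gene and were not called as tested.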
